A study of Mus musculus with 11 samples.

Results

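The vacuolar proton pump, or V-ATPase, was followed through the RNA levels of 10 subunit genes in mouse bone marrow derived macrophages. The genes were chosen by name as common subunits: Atp6v1a, Atp6v1b2, Atp6v1c1, Atp6v1d, Atp6v1e1 and Atp6v1h of the V1 sector, and Atp6v0a1, Atp6v0b, Atp6v0c and Atp6v0d1 of the V0 sector. All 10 were found among the 42375 named genes of the deposited count table, and all 10 passed the filter on low counts that left 15024 genes for testing. Their counts ran from 2340 to 34010 per gene and library.

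The cells were C57BL/6 macrophages grown from bone marrow, in a state labelled M0 or M1. For 16 hours they received a gapmer, an antisense oligonucleotide that directs cleavage of a paired RNA, either labelled NS or directed at the long noncoding RNA MERRICAL (KD). The groups were M0 NS (3 libraries, numbered 1, 2 and 4), M0 KD (3 libraries, with those same numbers), M1 NS (3 libraries, likewise 1, 2 and 4) and M1 KD (2 libraries, numbered 5 and 6). MERRICAL has no entry of that name in the table, and its level was not analysed here. The sources used here do not give the agent that made cells M1 or the meaning of the library numbers, and since M1 KD alone carries the numbers 5 and 6, a batch behind those numbers and the M1 KD group cannot be told apart. Nothing states that libraries came from separate cultures, so the p-values below reflect only how much these libraries vary, which can be technical.

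Total counts per library ran from 30040632 to 43250392. Defining macrophage genes (Cd68, Csf1r, Emr1, Itgam, Cd14, Fcgr1, Mertk, Lyz2 and Spi1) were all detected in every library, and their sum also differed between groups. It was 25830 to 27200 in M0 NS, 19460 to 21270 in M0 KD, 13840 to 16030 in M1 NS and 15030 to 18160 in M1 KD, in CPM (counts divided by library totals that TMM factors correct for differences in RNA composition). The sum does not give the direction of each gene. In M1 NS against M0 NS 5 of the 9 had a log2 fold change above 0, with a median of 0.67 (-0.038 over all genes tested). In M1 KD against M0 KD 6 of the 9 did, with a median of 0.78 (-0.11 over all genes tested). The summed level of 10 classical activation genes was 214 to 367 CPM in M0 libraries and 18190 to 24970 CPM in M1 libraries, in the direction of the labels. Summed markers of other cells differed too. The sum of 10 neutrophil and granulocyte precursor genes was 1410 to 2480 CPM in M0 NS, 766 to 852 in M0 KD, 260 to 336 in M1 NS and 219 to 220 in M1 KD, and that of 6 dendritic cell genes was 9.23 to 14.2 in M0 and 110 to 615 in M1. The dendritic cell genes did not all go with their sum. In M1 NS against M0 NS their log2 fold changes ran from -2.52 to 7.58 (median 1.75), with 5 of the 6 above 0. Lymphocyte genes summed to at most 1.12 CPM and stromal genes to at most 26.5 CPM. The part of these other cells in the results on the pump was not tested.

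The V-ATPase is a rotary motor in the membranes of lysosomes, endosomes and phagosomes. Its V1 sector, in the cytosol, splits ATP in a ring of alternating A and B subunits and turns a central stalk. The V0 sector, in the membrane, holds the ring of proteolipids that carries protons inward. In macrophages the pump acidifies the compartments where engulfed material is digested, and it also takes part in nutrient sensing at the lysosome. Several subunits have alternative genes, and the V0 a and d subunits of the osteoclast pump, a3 (Tcirg1) and d2 (Atp6v0d2), are also made in macrophages.

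The 10 genes lie on 9 chromosomes of GRCm38, by the GENCODE M21 annotation. The V1 genes are Atp6v1a (A, catalytic; chr16:44085402-44139705), Atp6v1b2 (B, the other subunit of the ATP-splitting ring; chr8:69088646-69113711), Atp6v1c1 (C, which links the stators to V0; chr15:38661933-38692446), Atp6v1d (D, the axle of the rotor; chr12:78840725-78861638), Atp6v1e1 (E, a stator; chr6:120794305-120822793) and Atp6v1h (H, which holds free V1 inactive; chr1:5070018-5162529). The V0 genes are Atp6v0a1 (a1, the large membrane subunit with the proton channel; chr11:101009452-101063719), Atp6v0b (c″, a proteolipid of the ring; chr4:117884326-117887333), Atp6v0c (c, the main proteolipid; chr17:24163866-24169702) and Atp6v0d1 (d1, which couples the ring to the central stalk; chr8:105524465-105566047). Exons of Atp6v0b, Atp6v1e1 and Atp6v1h overlap a gene on the other strand (Gm12841, Slc25a18 and Rgs20), and since the sources used here do not give the strand setting of the counting, such reads cannot be told apart. These partners had 0 counts in every library, 11 to 43 counts and 0 to 7 counts, small beside the pump genes' own. Atp6v0c also has annotated processed copies, and reads that both could give cannot be told apart here, so its level is less certain.

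Promoter windows from RefSeq (GRCm38.p6, 250 bases before to 50 after a transcript start) were found for 7 of the 10 genes, which had 9 windows between them. Many lysosomal genes carry an E-box with the core CACGTG near their start, which is a binding site of the MiT/TFE factors (Tfeb, Tfe3, Mitf and Tfec). The 6 letters CACGTG, which read the same on both strands, were in the windows of Atp6v0b, Atp6v0d1 and Atp6v1a and not in those of Atp6v1d, Atp6v1e1, Atp6v0a1 and Atp6v0c. They were in 7.15% of all 32851 windows and in 8.09% of the 27025 genes with a window. The windows of the 3 genes whose response to the gapmer differed most between states (Atp6v0b, Atp6v0d1 and Atp6v1d) and of the catalytic subunit gene Atp6v1a, which has the motif and was not called higher in M1 KD, are shown from 150 bases before the start site to 20 after it, 5′ to 3′ on the minus strand in each case, with the core in capitals.
Atp6v0b, chr4:117887310-117887479: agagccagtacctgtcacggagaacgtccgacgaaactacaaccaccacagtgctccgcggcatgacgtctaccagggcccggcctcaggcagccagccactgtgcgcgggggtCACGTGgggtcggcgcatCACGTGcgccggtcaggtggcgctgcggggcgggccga
Atp6v0d1, chr8:105566045-105566214: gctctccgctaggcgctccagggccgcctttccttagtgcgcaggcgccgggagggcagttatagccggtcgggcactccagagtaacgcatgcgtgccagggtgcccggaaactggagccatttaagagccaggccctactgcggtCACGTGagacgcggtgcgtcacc
Atp6v1d, chr12:78861619-78861788: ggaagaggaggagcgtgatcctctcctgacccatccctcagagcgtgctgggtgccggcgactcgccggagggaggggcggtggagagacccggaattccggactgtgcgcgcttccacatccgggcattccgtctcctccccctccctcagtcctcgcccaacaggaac
Atp6v1a, chr16:44139240-44139409: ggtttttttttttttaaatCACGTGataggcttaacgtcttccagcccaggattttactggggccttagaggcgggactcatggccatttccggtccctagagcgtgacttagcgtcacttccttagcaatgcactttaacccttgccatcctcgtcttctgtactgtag

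Atp6v0b had 2 copies of the core, starting 36 and 18 bases before the start site, Atp6v0d1 had 1 that spans the start site from 3 bases before it, and Atp6v1a had 1 at 131 bases before it. The longer form TCACGTGA, which contains the core, was in the windows of Atp6v1a and Atp6v0d1 and in 0.974% of all windows. The form GTCACGTG, which also contains the core and was searched on both strands, was in those of Atp6v0b and Atp6v0d1 and in 2.25% of all windows. A match is a run of letters and not a measured binding site, and its absence says only that these letters are not in the window. Whether the core bears on the levels below was not tested. For comparison, 8 of 22 lysosomal hydrolase and membrane protein genes with a window held the core.

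Levels of different subunits were compared only as CPM per kilobase of 1 coding transcript. By that measure Atp6v0b was the highest of the 10 in all 4 groups, at 318 CPM per kb in M0 NS, 267 in M0 KD, 388 in M1 NS and 714 in M1 KD, in each group without overlap with the next gene. In M0 NS it was followed by Atp6v1b2 (219), Atp6v0c (177), Atp6v1a (149), Atp6v1e1 (104), Atp6v0d1 (93.5), Atp6v1c1 (81.9), Atp6v0a1 (76.8), Atp6v1h (40.8) and Atp6v1d (25.2 CPM per kb), and among these neighbours only Atp6v1c1 and Atp6v0a1 had overlapping libraries. In M0 KD the order was near the same, with overlaps between Atp6v1a and Atp6v0c and along the run from Atp6v1e1 through Atp6v1c1 and Atp6v0a1 to Atp6v0d1. The order changed in M1 cells.

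In M1 NS Atp6v0c came next after Atp6v0b at 252 CPM per kb, followed by Atp6v1b2 (172), Atp6v1e1 (162), Atp6v1a (109), Atp6v0d1 (79.2), Atp6v1c1 (74.4), Atp6v1h (64.5), Atp6v1d (34.6) and Atp6v0a1 (22.7), with overlaps between Atp6v1b2 and Atp6v1e1 and along Atp6v0d1, Atp6v1c1 and Atp6v1h. In M1 KD it ran Atp6v0b, Atp6v0c (280), Atp6v1e1 (220), Atp6v1b2 (201), Atp6v0d1 (134), Atp6v1c1 (99.8), Atp6v1a (98.8), Atp6v1d (80.2), Atp6v1h (70.4) and Atp6v0a1 (31.0 CPM per kb). There Atp6v1e1 overlapped Atp6v1b2, and the libraries of each neighbouring pair from Atp6v0d1 to Atp6v1d overlapped. Lengths from all annotated exons of a gene kept Atp6v0b highest in all 4 groups, but put Atp6v1h lowest in each. Within a group the coefficient of variation of a member's CPM had a median of 6.3% and ran from 0.804% to 31.6%.

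**Figure D1:**
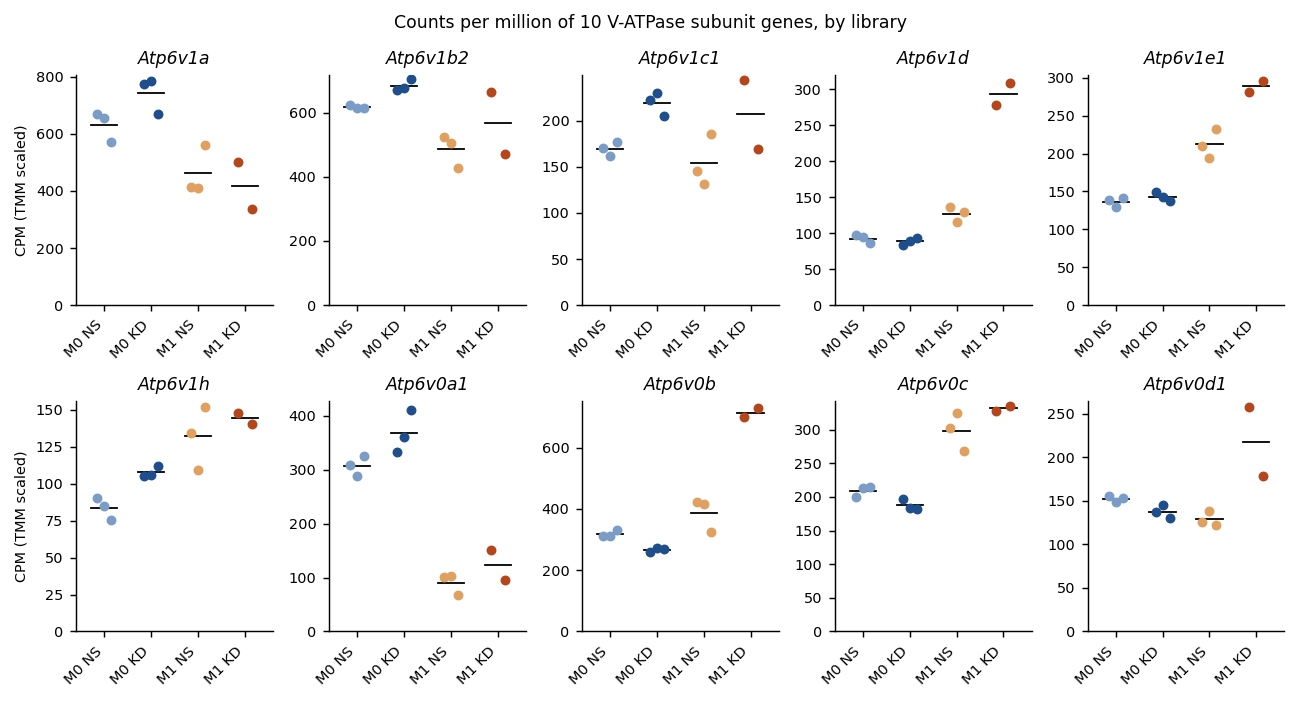
Level of each of the 10 subunit genes in CPM (y axis, from 0) in every library of the 4 groups (x axis), with points for libraries and a bar for the group mean. Atp6v1d and Atp6v0b stand highest in both M1 KD libraries, Atp6v0a1 is low in all M1 libraries, and for Atp6v1a, Atp6v1b2, Atp6v1c1, Atp6v0a1 and Atp6v0d1 the M1 KD libraries lie far apart.

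The comparison of M1 NS with M0 NS asked how the macrophage state bears on the pump. The subunits did not move together: the stalk and stator genes Atp6v1d, Atp6v1e1 and Atp6v1h and the proteolipid gene Atp6v0c were higher in M1 NS by 1.37 to 1.58 fold, while Atp6v0a1 was lower at 0.295 of its M0 level. Of the 10 genes 4 were called higher and 1 lower at a Benjamini-Hochberg adjusted p under 0.05, where 55.5% of all genes tested were called, 26.9% higher and 28.6% lower. For 8 of the 10 every library of 1 group lay above every library of the other, as for 61.4% of all genes. The median log2 fold change was 0.074 for the 10 genes and -0.038 for all genes tested. In such bulk samples fewer cells of a type and less RNA per cell cannot be told apart.

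Atp6v0a1 stood at 308, 289 and 326 CPM in M0 NS replicates 1, 2 and 4, and at 102, 104 and 67.1 CPM in those of M1 NS. Every M1 library was below every M0 library, those with the MERRICAL gapmer included. The log2 fold change was -1.76 (SE 0.20, adjusted p = 1.45e-05). Its paralogs did the reverse: Tcirg1 (a3), the a subunit of the osteoclast pump and of secretory lysosomes, was higher in M1 NS (0.66, SE 0.16, adjusted p = 0.00397), from 552, 608 and 640 CPM to 916, 1141 and 778 CPM, and Atp6v0a2 (a2) too (0.72, SE 0.11, adjusted p = 0.000107). With library size alone as the scaling, Tcirg1 fell to 0.26 and its edgeR call was lost (adjusted p = 0.157).

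Atp6v1e1 rose by 0.64 on the log2 scale (SE 0.11, adjusted p = 0.000489), from 138, 130 and 141 CPM to 211, 194 and 232 CPM. Atp6v1h rose from 90.2, 85.2 and 75.4 CPM to 135, 109 and 152 CPM (0.66, SE 0.13, adjusted p = 0.00113). For both genes all M1 NS libraries lay above all M0 NS libraries. Atp6v0c rose from 199, 213 and 215 CPM to 303, 324 and 268 CPM (0.51, SE 0.12, adjusted p = 0.00273), and Atp6v1d from 97.1, 94.2 and 86.2 CPM to 137, 115 and 129 CPM (0.46, SE 0.12, adjusted p = 0.00501), again without overlap.

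The ring subunits and the other members were not called. Atp6v1a had a log2 fold change of -0.45 (95% interval -0.85 to -0.06, adjusted p = 0.0509), from 668, 656 and 571 CPM to 414, 410 and 561 CPM, so that 2 of the 3 M1 NS libraries were well below M0 NS and replicate 4 was just below it. It passed the threshold in 13 of 26 alternatives, among them those without M0 NS replicate 4 (adjusted p = 0.049), M1 NS replicate 4 (0.01), M1 KD replicate 5 (0.0301) or M1 KD replicate 6 (0.0305). Atp6v1b2 had -0.35 (adjusted p = 0.0681, and 0.0359 or 0.037 without M1 KD replicate 5 or 6). Atp6v0b had 0.29 (adjusted p = 0.0841, and 0.00751 without M1 NS replicate 4), Atp6v1c1 -0.14 and Atp6v0d1 -0.24. These calls lean on how libraries are scaled: without TMM factors the median of all genes moves to -0.42, none of the 10 genes is called higher and 5 are called lower, and of all genes 2348 are called higher and 6447 lower in place of 4044 and 4294. Measured against that median, the values are near the ones above (Atp6v1e1 0.68, Atp6v1h 0.70, Atp6v0a1 -1.74). A change of scaling moves all genes nearly alike, so this follows from the subtraction and does not show which scaling is right.

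**Figure D2:**
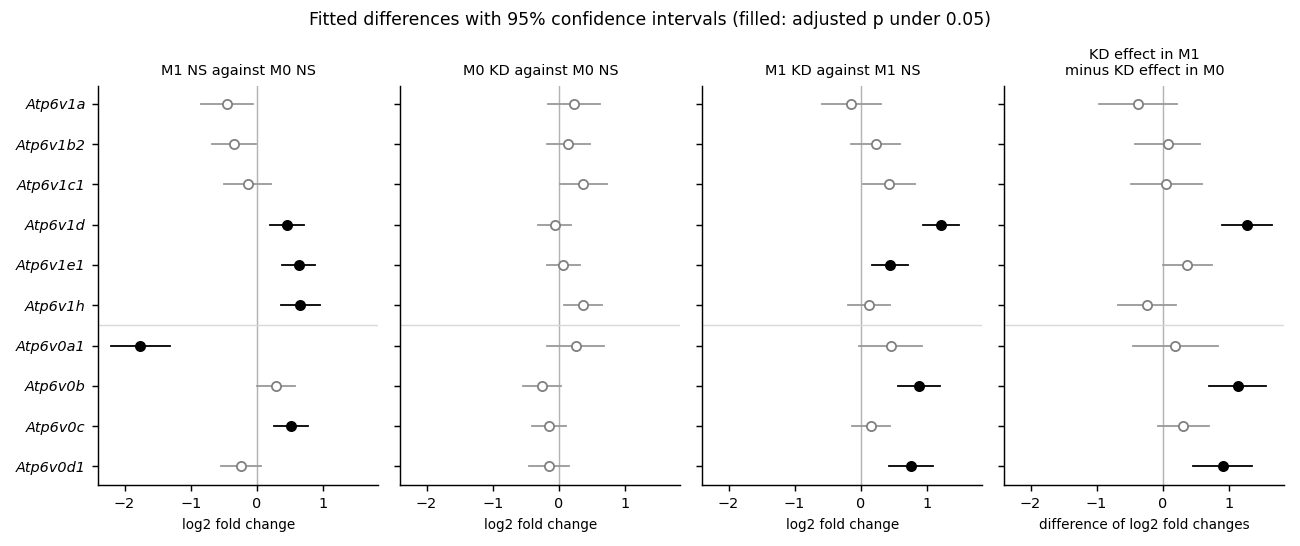
Fitted log2 fold change of each subunit gene (y axis, V1 above the grey line and V0 below it) with its 95% confidence interval (x axis, log2 scale) in 3 comparisons and in the difference of the gapmer effects between states. Filled points have an adjusted p under 0.05: 5 genes in M1 NS against M0 NS, none in M0 KD against M0 NS, 4 in M1 KD against M1 NS and 3 in the difference.

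The comparison of M0 KD with M0 NS addressed the effect of the MERRICAL gapmer in unstimulated cells. None of the 10 genes was called by edgeR, where 0% of all genes tested were called. At an unadjusted p under 0.05 there were 2 of the 10 (Atp6v1c1 and Atp6v1h) and 1947 of all genes. DESeq2 and limma-voom also called none of the 10, and of all genes DESeq2 called 117 higher and 104 lower. Atp6v1h ran at 90.2, 85.2 and 75.4 CPM in M0 NS and at 106, 106 and 112 CPM in M0 KD (log2 fold change 0.37, 95% interval 0.08 to 0.66, adjusted p = 0.325).

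Atp6v1c1 ran at 170, 162 and 177 CPM in M0 NS and at 222, 230 and 205 CPM in M0 KD (0.37, 95% interval 0.01 to 0.73, adjusted p = 0.376). Both genes had every M0 KD library above every M0 NS library. With the 6 M0 libraries fitted alone, Atp6v1c1 and Atp6v1h passed the threshold (adjusted p = 0.0371 and 0.0373), in a fit that called 545 genes higher and 558 lower. M0 KD and M0 NS libraries were fully apart for 8 of the 10 members, as for 35.1% of all genes. The other 8 log2 fold changes ran from -0.25 for Atp6v0b, at 311, 313 and 331 CPM in M0 NS and 258, 272 and 269 CPM in M0 KD, to 0.26 for Atp6v0a1. Beside these values, the granulocyte gene sum fell in M0 KD to the range given above, with 0 of its 10 genes above a log2 fold change of 0, and its part in them was not tested.

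The comparison of M1 KD with M1 NS set the MERRICAL gapmer against NS in M1 cells, where the gapmer and the library numbers 5 and 6 cannot be told apart. The rotor axle gene Atp6v1d, the proteolipid gene Atp6v0b, the coupling subunit gene Atp6v0d1 and the stator gene Atp6v1e1 were higher in M1 KD, by 2.32, 1.84, 1.69 and 1.36 fold, and no member was called lower. Of all genes tested 36.8% were called, 17.6% higher and 19.2% lower, beside 4 of the 10 members higher and 0 lower. The libraries of M1 KD and M1 NS were fully apart for 5 of the 10, as for 52.4% of all genes. Neither DESeq2 nor limma-voom called a member lower, and the 5 members with an unadjusted p under 0.05 were all higher. Such a p was found for 6981 of the 15024 genes tested. The median log2 fold change of the 10 was 0.43 against 0.001 for all genes.

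Atp6v1d stood at 137, 115 and 129 CPM in M1 NS and at 279 and 309 CPM in M1 KD. Both M1 KD libraries were more than 100 CPM above any other library of the study. The log2 fold change was 1.21 (SE 0.13, adjusted p = 4.29e-05), and it ran from 1.13 to 1.39 over the 24 alternative settings. Its promoter window, shown above, has no CACGTG core, and a link between the core and these values was not tested.

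Atp6v0b stood at 422, 417 and 325 CPM in M1 NS and at 699 and 729 CPM in M1 KD, again the highest libraries of all 11. The log2 fold change was 0.88 (SE 0.15, adjusted p = 0.000777), with a range of 0.68 to 1.03 over the alternatives. Atp6v0d1 stood at 126, 139 and 123 CPM in M1 NS and at 258 and 178 CPM in M1 KD (0.76, SE 0.15, adjusted p = 0.00265). Here the groups did not overlap, but the M1 KD libraries differed by 1.45 fold: without M1 KD replicate 5 the value fell to 0.46 (adjusted p = 0.0442).

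Atp6v1e1 stood at 211, 194 and 232 CPM in M1 NS and at 281 and 296 CPM in M1 KD (0.44, SE 0.13, adjusted p = 0.0168). The groups did not overlap, yet this call was lost without M1 KD replicate 6 (adjusted p = 0.0777), with the compared groups fitted alone (0.109) and with no filter on low counts (0.0702). The remaining members had log2 fold changes of -0.14 for Atp6v1a, 0.13 for Atp6v1h, 0.15 for Atp6v0c, 0.22 for Atp6v1b2, 0.43 for Atp6v1c1 (adjusted p = 0.0854) and 0.45 for Atp6v0a1 (adjusted p = 0.128). Without M1 KD replicate 6, Atp6v1c1 and Atp6v0a1 passed the threshold as well (0.66 and 0.74, adjusted p = 0.0252 and 0.0358), and Atp6v1c1 did so without M1 NS replicate 4 (adjusted p = 0.0113) and by DESeq2 (0.0393). With upper quartile scaling, which moved the median of all genes to 0.15, Atp6v1c1 was called too.

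The M1 KD libraries fell into a pattern of their own among the subunits. Replicate 5 was higher than replicate 6 by 1.48 fold for Atp6v1a (500 and 337 CPM), 1.41 for Atp6v1b2 (663 and 472 CPM), 1.44 for Atp6v1c1 (244 and 169 CPM), 1.58 for Atp6v0a1 (152 and 96.4 CPM) and 1.45 for Atp6v0d1. For Atp6v1d, Atp6v1e1, Atp6v1h, Atp6v0b and Atp6v0c the ratio of replicate 5 to replicate 6 lay between 0.901 and 1.05. Of the 4 members called higher in M1 KD, Atp6v1d, Atp6v0b and Atp6v1e1 were thus at like levels in both libraries and Atp6v0d1 was not. Marker sums differed between these libraries too, with 134 CPM for dendritic cell genes in replicate 5 and 615 CPM in replicate 6, and 19510 and 24970 CPM for classical activation genes, and their part in the pattern was not tested.

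**Figure D3:**
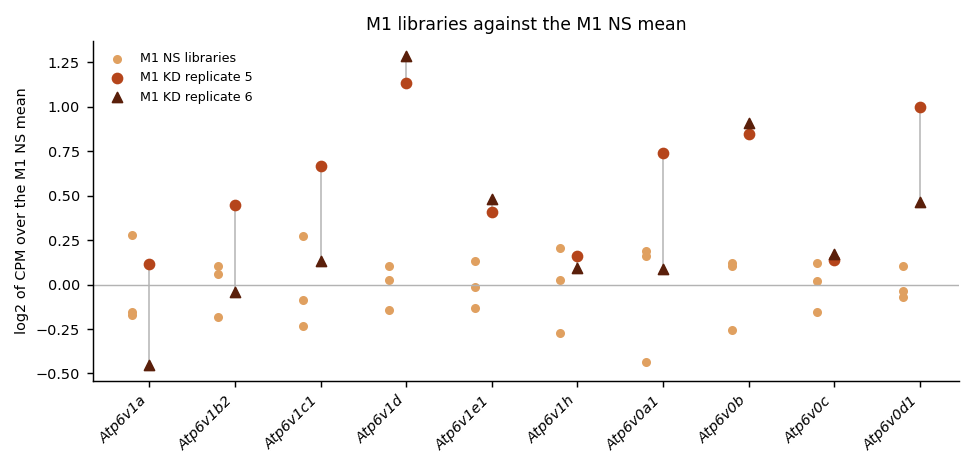
Level of each subunit gene in the M1 libraries as the log2 of its CPM over the M1 NS mean (y axis), with the 3 M1 NS libraries in light points and the M1 KD replicates 5 and 6 as a circle and a triangle. For 5 genes the circle is far above the triangle, at 1 and 0.46 for Atp6v0d1, while for Atp6v1d (1.13 and 1.28), Atp6v0b (0.85 and 0.91) and Atp6v1e1 (0.41 and 0.48) both lie together above the M1 NS points.

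The difference between KD and NS was itself different in the M1 and M0 states for 3 members. The difference of log2 fold changes, M1 minus M0, was 1.27 for Atp6v1d (SE 0.17, adjusted p = 0.000446), 1.13 for Atp6v0b (SE 0.20, adjusted p = 0.00184) and 0.90 for Atp6v0d1 (SE 0.21, adjusted p = 0.00799). In M0 cells the same genes had log2 fold changes of -0.06, -0.25 and -0.15, none of them called. Of all genes tested 27.3% were called in this difference, 13.1% higher and 14.2% lower, and no member was called lower by edgeR, DESeq2 or limma-voom. By edgeR 4 members had an unadjusted p under 0.05, all with a positive difference, as had 5939 of the 15024 genes tested in either direction. Atp6v1e1, at 0.37, was not called (adjusted p = 0.124), so its effect was not shown to differ between states, though it passed by DESeq2 (adjusted p = 0.0175), with upper quartile scaling (0.0423) and without M1 NS replicate 4 (0.032). The median difference was 0.25 for the 10 genes and -0.017 for all genes.

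Between the gapmer groups, M1 KD against M0 KD, 6 members were called higher and 2 lower, where 58.3% of all genes were called, 26.9% higher and 31.4% lower. Libraries were fully apart for 9 members, as for 74.9% of all genes. Without TMM factors, which moves the median of all genes from -0.11 to -0.595, 4 members are called higher and 4 lower, and of all genes 2376 higher and 7077 lower in place of 4040 and 4715. This comparison shares its libraries with those above, so its values are given beside them and not as further support. Atp6v1d was 3.32 fold higher (log2 fold change 1.73, adjusted p = 4.19e-07), from 83.6, 89.2 and 93.0 CPM, and Atp6v0b was 2.68 fold higher (1.42, adjusted p = 5.86e-06). Atp6v1e1 (1.01), Atp6v0c (0.82), Atp6v0d1 (0.67) and Atp6v1h (0.42, adjusted p = 0.0269) were higher as well, while Atp6v0a1 (-1.57, adjusted p = 0.000111) and Atp6v1a (-0.83, adjusted p = 0.00453) were lower. The call of Atp6v1a was lost without M1 KD replicate 6 (adjusted p = 0.0629), and that of Atp6v0d1 without replicate 5 (0.058). The value of Atp6v0d1 also fell to 0.27 with the trend in length and GC content removed (adjusted p = 0.116) and to 0.18 with library size alone (0.324). That of Atp6v1h was lost without either of them (0.115 without replicate 5 and 0.0644 without replicate 6) and without M0 KD replicate 1 or 2 (0.0729 and 0.0702).

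The summed CPM of the 10 genes was 2719 ± 36.7 in M0 NS, 2944 ± 42.0 in M0 KD, 2479 ± 33.3 in M1 NS (SD, n = 3 each) and 3307 ± 346 in M1 KD (SD, n = 2). With TMM factors the 4 ranges did not overlap, from 2450 to 2516 in M1 NS at the low end to 3063 and 3552 in M1 KD at the high end. Those factors were 0.825 to 0.902 in M1 libraries and 1.095 to 1.194 in M0 libraries. The place of the M1 sums beside the M0 sums, and the lack of overlap, thus depend on this scaling. The M1 NS and M1 KD sums also hide changes in opposite directions of single subunits. Across the 11 libraries the 45 pairs of members had Pearson correlations of log2 CPM from -0.92 to 0.96 with a median of 0.19, the highest for Atp6v1d with Atp6v0b. All pairs share the same 11 libraries and the group differences. With group means taken out the median was -0.03.

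The pump has further genes: 15 alternative subunits, small subunits and accessory proteins, chosen for this description with earlier results of these data known. Of these, 9 passed the filter, and Atp6v1b1, Atp6v1c2, Atp6v1e2, Atp6v1g3, Atp6v0a4 and Atp6v0e2, which include the kidney and testis forms, did not. In M1 NS against M0 NS, 3 of the 9 were called higher and 2 lower, and in M1 KD against M1 NS 4 were called higher and 1 lower. Of all genes tested 55.5% and 36.8% were called in these comparisons, so the first count is near the background. Their medians were -0.06 and 0.39. In M0 KD against M0 NS none was called by edgeR, with 2 at an unadjusted p under 0.05 (Atp6v1f and Tcirg1).

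Atp6v0d2, the alternative d subunit known from osteoclasts and macrophages, had the largest fold changes of the 9 in M1 NS against M0 NS and in M1 KD against M1 NS. It stood at 222, 165 and 234 CPM in M0 NS, 241, 219 and 356 CPM in M0 KD, 13.2, 11.4 and 12.7 CPM in M1 NS, and 159 and 97.2 CPM in M1 KD. The M1 NS libraries were all far below the others. The log2 fold change was -4.05 in M1 NS against M0 NS (SE 0.25, adjusted p = 9.42e-08), 3.36 in M1 KD against M1 NS (SE 0.26, adjusted p = 6.27e-06) and -1.08 in M1 KD against M0 KD (adjusted p = 0.00297). The gapmer effect differed between states by 2.97 (SE 0.33, adjusted p = 0.000162).

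As a share of both d genes, on the per-kilobase scale, Atp6v0d2 made up 41.6% to 49.5% in M0 NS, 49.1% to 63.7% in M0 KD, 5.04% to 6.30% in M1 NS and 25.95% to 28.4% in M1 KD. The M0 groups overlapped in part, and both M1 groups stood apart from them and from each other. Among the 3 expressed a genes, Atp6v0a1 made up 25.4% to 28.6% in M0 NS, 33.0% to 38.0% in M0 KD, 5.77% to 7.35% in M1 NS and 5.77% to 7.68% in M1 KD. So the a subunit share of the M1 groups overlapped while their d subunit share did not. Tcirg1 made up 57.8% to 70.4% in M0 libraries and 87.4% to 90.4% in M1 libraries.

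**Figure D4:**
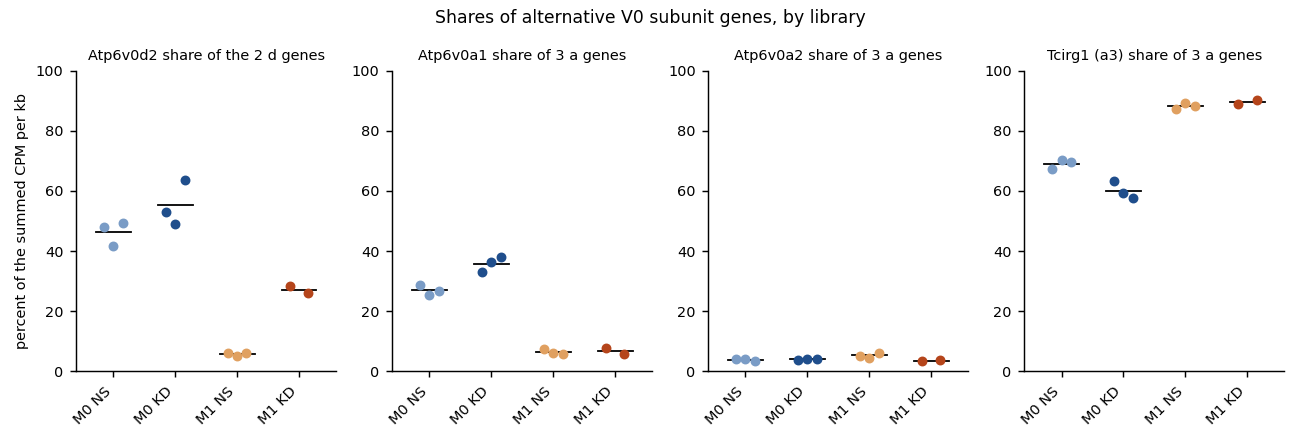
Share of alternative subunit genes in the summed CPM per kilobase (y axis, percent, from 0 to 100) of the d genes (Atp6v0d1 and Atp6v0d2) and of the a genes (Atp6v0a1, Atp6v0a2 and Tcirg1) in every library by group (x axis), with bars for group means. The d2 share averages 46.3% in M0 NS, 5.86% in M1 NS and 27.2% in M1 KD, while the a1 share is 27.0%, 6.43% and 6.73%.

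Among the small subunits, Atp6v0e (e1, a small membrane subunit) stood at 202, 190 and 181 CPM in M1 NS and at 360 and 318 CPM in M1 KD (log2 fold change 0.83, SE 0.13, adjusted p = 0.000467), without overlap. Atp6v1f (F, part of the central rotor with D) stood at 151, 179 and 154 CPM in M1 NS and at 225 and 206 CPM in M1 KD (0.42, adjusted p = 0.0243), and Atp6v1g1 (G, a stator) had 0.41 (adjusted p = 0.0208). The calls of Atp6v1f and Atp6v1g1 were lost without M1 KD replicate 5 (adjusted p = 0.146 and 0.167) or without M1 NS replicate 1 (0.082 and 0.0676). Atp6v1g2, the neuronal G form, was low throughout, from 2.96 to 8.21 CPM, and was lower in M1 KD (-1.02, adjusted p = 0.00876), a call lost without M1 KD replicate 5 (adjusted p = 0.0561). The accessory gene Atp6ap1 was lower in M1 NS than in M0 NS (-0.54, adjusted p = 0.00515), and Atp6ap2, the prorenin receptor, had -0.30 (adjusted p = 0.149).

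The gapmer effect differed between states, higher in M1, for 5 of the 9: Atp6v0d2, Atp6v0e (1.01, adjusted p = 0.00164), Atp6v1f (0.79, adjusted p = 0.00621), Tcirg1 (0.75, adjusted p = 0.0356) and Atp6v1g1 (0.52, adjusted p = 0.0343). Of all genes tested 13.1% were called higher and 14.2% lower in this difference. Tcirg1 and Atp6v1g1 were each called in 12 of 23 alternatives. The calls of Tcirg1 and Atp6v1g1 were lost with several single libraries left out (adjusted p up to 0.126 and 0.132, in both cases without M1 KD replicate 5). With the trend in length and GC content removed, the difference for Tcirg1 fell to 0.345 (adjusted p = 0.154), and with library size alone its adjusted p was 0.0502. The CACGTG core was in the window of 1 of the 12 further pump genes that have one, Atp6v0e.

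**Figure D5:**
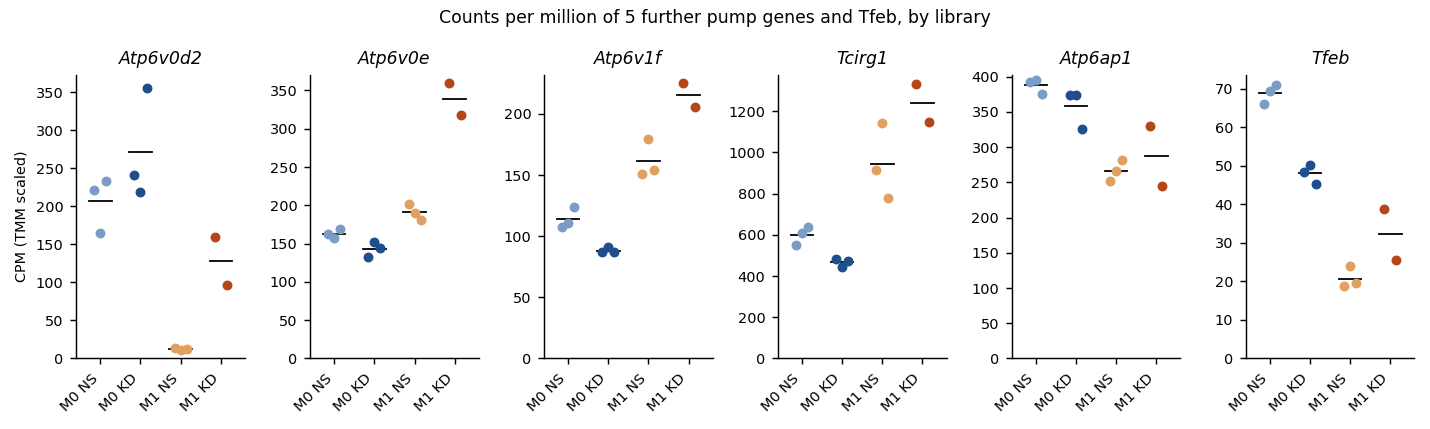
Level in CPM (y axis, from 0) of Atp6v0d2, Atp6v0e, Atp6v1f, Tcirg1, Atp6ap1 and the transcription factor gene Tfeb in every library by group (x axis), with bars for group means. Atp6v0d2 is below 14 CPM in all M1 NS libraries only, and Atp6v0e is highest in both M1 KD libraries.

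The MiT/TFE factors are known as activators of pump and lysosome genes. Tfeb stood at 66.1, 69.4 and 71.0 CPM in M0 NS, 48.4, 50.3 and 45.4 CPM in M0 KD, 18.7, 24.0 and 19.6 CPM in M1 NS, and 38.8 and 25.6 CPM in M1 KD. Its groups did not overlap with one another. It was lower in M1 NS than in M0 NS (log2 fold change -1.73, SE 0.16, adjusted p = 1.77e-06) and higher in M1 KD than in M1 NS (0.64, SE 0.17, adjusted p = 0.0113). The second call was lost without M1 KD replicate 5 (0.30, adjusted p = 0.216). The difference of the gapmer effects was 1.16 (adjusted p = 0.00333), from a value of -0.52 in M0 cells that was not called (adjusted p = 0.261). With the trend in length and GC content removed it fell to 0.53 and the call was lost (adjusted p = 0.108).

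Tfec, a macrophage member of the family, was lower in M1 NS (-2.02, adjusted p = 5.73e-05) and did not pass the test in M1 KD against M1 NS (-0.28, adjusted p = 0.5). Tfe3 had -0.15 in the first comparison and -0.42 in the second (adjusted p = 0.0367), a call lost with 9 of the 11 libraries left out in turn (adjusted p up to 0.172, without M1 KD replicate 6). Mitf had 0.17 and -0.21, neither of them called. Thus of the 4 factors 2 were called lower with the M1 state, and 1 higher and 1 lower with the gapmer in M1 cells. Of all genes 28.6% were called lower in the first comparison, and 17.6% higher and 19.2% lower in the second. Counts among 4 genes are too few to set apart from these shares.

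Genes of pump assembly and regulation (14, all tested) went both ways. The counts of this and the following lists stand beside 26.9% of all genes called higher and 28.6% lower in M1 NS against M0 NS, and 17.6% higher and 19.2% lower in M1 KD against M1 NS. In M1 NS against M0 NS 4 were higher and 8 lower (median -0.50). Aldoa, the glycolytic aldolase that binds the pump, had 1.30 and Tmem199, an assembly factor, 0.63 (a call lost with library size alone). Tmem9 had -3.25 and Rogdi -3.02. In M1 KD against M1 NS 4 were higher and 3 lower (median 0.11). Tmem9, a lysosomal membrane protein that binds the pump, rose from 1.52 ± 0.16 CPM (SD, n = 3) to 7.11 ± 2.76 CPM (SD, n = 2; log2 fold change 2.23, adjusted p = 6.2e-05). Rogdi, of the complex that rejoins V1 to V0, had 0.82 (adjusted p = 0.0141, lost without M1 KD replicate 6, at 0.131), while the assembly factors Ccdc115 (-0.88) and Tmem199 (-0.72) were lower.

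The pump serves compartments that hold the lysosomal enzymes. Of 28 lysosomal hydrolase and membrane protein genes, 6 were higher and 19 lower in M1 NS against M0 NS (median -0.79). In M1 KD against M1 NS 20 were higher and none lower (median 0.84). There 20 had an unadjusted p under 0.05, as had 6981 of the 15024 genes tested. Hexa, a subunit of beta-hexosaminidase, ran from 1213 ± 46.5 CPM in M0 NS to 264 ± 13.7 in M1 NS (SD, n = 3 each) and 796 ± 161 in M1 KD (SD, n = 2), with log2 fold changes of -2.20 (adjusted p = 2.26e-07) and 1.59 (adjusted p = 3.39e-05). Naglu, a glycosidase that degrades heparan sulfate, had -1.13 and 1.54. Ctsz (1.11) and Npc2 (0.88) were higher in M1 NS than in M0 NS, and Tpp1 (-1.82) was lower. M1 NS against M0 NS and M1 KD against M1 NS share the M1 NS libraries, so their values are not independent. In the same comparisons the 10 member subunits had 4 higher and 1 lower, and 4 higher and none lower.

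Of 12 lysosomal ion channel and transporter genes, 3 were higher and 6 lower in M1 NS against M0 NS. Clcn7 (1.12) and Slc11a1 (0.68, a call lost with library size alone) were higher, and Tpcn1 (-3.28) and Tmem175 (-1.04) lower. In M1 KD against M1 NS 3 were higher and 1 lower, where the share called is near the 36.8% of all genes. There the calcium channel gene Mcoln1 had 1.12 and Mcoln2 1.175. The 1 gene called lower, Tpcn2, had -1.09. Of 16 genes of the Ragulator and Rag GTPase system, which senses nutrients together with the pump, 3 were higher and 8 lower in the first comparison and 4 higher and 3 lower in the second, again near the share of all genes in the latter. Rragd, which encodes the GTPase RagD, had -3.09 and 3.10, and Flcn, the folliculin gene, -1.86 and 1.24. Lower in M1 KD than in M1 NS were Rraga (-2.33) and Rptor (-0.81). Higher in M1 NS than in M0 NS were Rheb (0.79) and Mtor (0.72, a call lost with library size alone).

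Since Atp6v0d2 and Tcirg1 mark osteoclasts as well, the osteoclast list was read beside them. Its 10 genes summed to 134 to 154 CPM in M0 NS, 98.2 to 180 in M0 KD, 53.9 to 95.02 in M1 NS and 105 to 131 in M1 KD. Of the 8 that passed the filter 3 were higher in M1 KD than in M1 NS (Acp5, Ctsk and Itgb3) and none lower. Their median log2 fold change was 0.80. Of all genes tested 17.6% were called higher and 19.2% lower there. At least 8 of the 10 genes had counts in every library. Calcr and Oscar, of the same list, were at or near 0, with at most 0.0731 and 0.219 CPM in any library. The part of such cells in the values of Atp6v0d2 was not tested.

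The genes most like the 10 members were found by Pearson correlation of log2 CPM with the mean of the members' z scores over the 11 libraries, among 8065 genes that reached 3 or more as mean log2 CPM. The 5 highest were Gyg (0.97), which encodes the glycogen primer glycogenin, and Ttc17, Aig1, Slc43a3 and Tmem242 (0.95 to 0.96). They share the libraries and the group differences. The mean z score of the members was 1.15 in M1 KD replicate 5, 0.41 in replicate 6 and from -0.35 to 0.05 in all other libraries. These correlations thus rest largely on M1 KD, most of all on replicate 5, and the 10 members did not share 1 profile. Gyg stood at 102 ± 7.42 CPM in M0 NS, 119 ± 1.99 in M0 KD, 108 ± 6.18 in M1 NS (SD, n = 3 each) and 319 ± 95.9 in M1 KD (SD, n = 2), with the M1 KD group highest. For Atp6v0d1 alone the nearest were Gdf15 (0.97), a stress-induced cytokine gene, Eif3h (0.97) and Rpl10 (0.96), and for Atp6v1a alone Tmem55a (0.99), Klf10 (0.98) and Abcd3 (0.98).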

How the data were processed

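RNA from 11 libraries in 4 groups was sequenced. The build GRCm38 and the tools featureCounts (Subread 1.5.2), STAR 2.5.2b and Trimmomatic 0.36 are named in the submitters' processing notes. The sources used here do not give the strand setting or the annotation. The authors deposited raw counts per gene and library, and a second table whose normalized signal, as deposited, is those counts divided by 1 constant per library, for 22812 genes. The entry with no gene name (at most 0.000305% of a library) was left out.

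Counts were tested with edgeR 4.0.16 in R 4.3.3: filterByExpr by group (minimum count 10, minimum total 15), TMM factors, and 1 robust quasi-likelihood fit (glmQLFit, glmQLFTest) over all 11 libraries, with Benjamini-Hochberg adjustment over 15024 genes and a threshold of 0.05. Each SE is that of the log2 fold change. All libraries share 1 estimate of the spread, since M1 KD has 2. Lengths per kilobase are those of the longest protein-coding transcript of the GENCODE M21 basic set. The script was tested on simulated counts.

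The 10 members and the 13 other lists were chosen with earlier results of these data known, so no list has a test of its own. Named were all members, the further pump and MiT/TFE genes, and markers read beside a result. From other lists the 2 called genes with the smallest p in each direction were named. That was done for M1 NS against M0 NS and for M1 KD against M1 NS only. The genes most like the members were the 5 with the highest correlation (3 for Atp6v0d1 and Atp6v1a alone), left to established symbols. DESeq2 1.42.0, limma 3.58.1 and mgcv 1.9.3 served the alternatives.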

Additional observations from a re-analysis of the deposited data

Results flagged for a closer look

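For 3 of the 10 subunit genes the effect of the MERRICAL gapmer differed between M1 and M0 cells by a test of the difference itself (edgeR's quasi-likelihood test, Benjamini-Hochberg adjusted over all genes tested). Of all genes tested 27.3% were called in this difference, 13.1% higher and 14.2% lower, so the count is near the share called in either direction. In M1 cells the gapmer and the library numbers 5 and 6 cannot be told apart. The difference of log2 fold changes was 1.27 for Atp6v1d (adjusted p = 0.000446), 1.13 for Atp6v0b (adjusted p = 0.00184) and 0.90 for Atp6v0d1 (adjusted p = 0.00799). Over 23 alternatives the differences stayed positive and called, at 1.17 to 1.66, 0.71 to 1.27 and 0.57 to 1.15, with adjusted p-values up to 0.00251, 0.00819 and 0.042. In M1 cells both KD libraries lay above all 3 NS libraries for each gene, while in M0 cells the NS and KD libraries of Atp6v1d overlapped and all KD libraries of Atp6v0b and Atp6v0d1 lay below all NS libraries, with log2 fold changes of -0.25 and -0.15 that were not called. Of all genes, KD and NS libraries were fully apart for 52.4% in M1 cells and for 35.1% in M0 cells.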

How the results depend on the processing

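Over up to 26 alternatives per result, 1156 member values kept their direction and their side of the threshold, 37 passed it only under the alternative, 18 lost it and 19 changed direction, none of these 19 past the threshold there. With library size alone as the scaling, M1 NS against M0 NS had 0 members higher and 5 lower, and M1 KD against M0 KD had 4 lower. Members called lower in M1 NS against M0 NS, 1 as reported, numbered 4 with upper quartile scaling, 3 with the trend in length and GC content removed, 3 in the 9 libraries without the M1 KD group, and 2 with no filter, a minimum count of 50, DESeq2, limma-voom or the robust option off, and 1 to 3 with single libraries left out. In M1 KD against M0 KD that last range was 1 to 3. With the compared groups fitted alone 2 members were higher in M0 KD. The cause of these changes was not tested.

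Values that changed direction were, with library size alone, Atp6v0b -0.106 (M1 NS against M0 NS), Atp6v1g1 -0.032 and Atp6v1h -0.066 (M1 KD against M0 KD), and Atp6v1b2 -0.016 and Atp6v1c1 -0.046 (difference of effects). With upper quartile scaling Atp6v1a had 0.009 in M1 KD against M1 NS, and with the groups alone Atp6v1c1 had 0.007 in M1 KD against M0 KD. With the length and GC trend removed they were Atp6v0c 0.07 (M0), Atp6v1a 0.027 and Atp6v0c -0.06 (M1), and Atp6v1b2 -0.001 and Atp6v0c -0.129 (difference). With 1 library left out, values for M1 KD against M1 NS ran from -0.463 to 0.11 for Atp6v1a (0.062 without M1 NS replicate 4) and from -0.05 to 0.444 for Atp6v1b2. For M1 KD against M0 KD Atp6v1c1 ran from -0.378 to 0.159. The differences of effects ran from -0.192 to 0.303 for Atp6v1b2, from -0.236 to 0.299 for Atp6v1c1 (-0.048 without M1 NS replicate 2) and from -0.175 to 0.485 for Atp6v0a1. The ends of these ranges are without M1 KD replicate 5 or 6.

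Libraries with the same number did not deviate together (r from -0.115 to 0.135 over 9 pairs, 2 over 0.1, own number best in 7 of 18 checks). With the replicate number as a block, in the 9 libraries of M0 NS, M0 KD and M1 NS, 4 members were higher and 1 lower in M1 NS against M0 NS and none was called in M0 KD against M0 NS. The same 9 libraries without that pairing gave 4 higher and 3 lower, with Atp6v1a and Atp6v1b2 added (adjusted p = 0.0379 and 0.0461). M1 KD shares no number, so its comparisons had no block. The groups hold 3 or 2 libraries, which limits the differences that can be called. In the simulated counts 55% to 70% of 2-fold changes were called in the comparisons of 2 groups, and 29% in the difference of effects. A gene that was not called is thus not shown to be unchanged. The exon-based length and the 9-library fit were chosen after seeing the data.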
